A study of Mus musculus with 6 samples.

Results

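The 10 core circadian clock genes Arntl, Clock, Per1, Per2, Per3, Cry1, Cry2, Nr1d1, Nr1d2 and Dbp were followed in the hippocampus of aging (22M) and young (3M) mice. They were taken by gene name from the 13321 genes of the deposited table, and all 10 were found, with 19 protein-coding transcripts among them. The mice were male, wild-type and of the inbred strain C57 BL/6, at 22 months (libraries 72, 76 and 78) and at 3 months (J11, J13 and J15), and neither group had been treated. By the paper's methods, brain samples were used after behavioural tests, namely an open field test and a Morris water maze. The part of these tests in the values was not tested. Total RNA of the whole hippocampus was enriched for poly(A) RNA and sequenced as stranded libraries. Whether each library is from a mouse of its own is not stated, so p-values here speak of the spread among libraries only. The time of day at which the tissue was taken is not given in the sources used here, so a shift of the clock and a difference in sampling time cannot be told apart.

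The circadian clock of a mammalian cell is a loop of transcription. CLOCK and ARNTL (also called BMAL1) bind E-boxes as a pair and switch on the Per and Cry genes, whose proteins return to the nucleus and inhibit that pair. Another loop runs through Nr1d1 and Nr1d2, which encode REV-ERBα and REV-ERBβ, repressors of Arntl. Dbp, a transcription factor gene driven by E-boxes, acts in turn on D-boxes. In tissues with a running clock, Arntl RNA is high when Nr1d1 and Dbp RNA is low and the reverse, while Clock RNA cycles little in most tissues. In the hippocampus the clock is known for its influence on the time of day at which memories form best.

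Promoter windows were searched for letters of the elements named above, and 3 windows with matches are printed to show where these lie. The 250 bases before each RefSeq start site (GRCm38.p6) were searched on both strands for the E-box CACGTG, its variant CACGTT, the D-box TTATGTAA and AGGTCA, the core of the element bound by ROR and REV-ERB proteins. Windows were at hand for 9 of the 10 genes. Matches are in capitals in the sequences, written 5′ to 3′ along the gene.
Per3, minus strand, chr4:151044666-151044915: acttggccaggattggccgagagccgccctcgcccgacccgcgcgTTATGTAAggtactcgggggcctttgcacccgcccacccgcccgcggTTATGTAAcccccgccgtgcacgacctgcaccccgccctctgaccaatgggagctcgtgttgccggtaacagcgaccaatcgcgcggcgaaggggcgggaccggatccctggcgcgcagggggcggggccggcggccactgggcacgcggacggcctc
Cry1, minus strand, chr10:85185055-85185304: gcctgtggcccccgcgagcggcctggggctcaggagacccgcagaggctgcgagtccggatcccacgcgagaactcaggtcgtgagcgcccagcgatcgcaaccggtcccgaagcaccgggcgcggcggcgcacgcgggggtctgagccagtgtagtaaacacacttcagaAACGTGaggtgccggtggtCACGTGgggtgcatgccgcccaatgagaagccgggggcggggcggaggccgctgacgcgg
Per1, plus strand, chr11:69098699-69098948: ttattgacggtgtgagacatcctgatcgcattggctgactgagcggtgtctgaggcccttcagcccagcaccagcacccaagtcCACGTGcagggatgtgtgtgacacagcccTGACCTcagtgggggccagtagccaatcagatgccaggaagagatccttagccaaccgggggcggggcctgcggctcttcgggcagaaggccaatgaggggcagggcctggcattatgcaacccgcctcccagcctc
The Per3 window held 2 D-boxes, with first bases at -205 and -158 from the start site, and 0.819% of the 32851 windows of all genes held at least 1. The Cry1 window held an E-box at -60 and the variant at -79. The printed Per1 window held an E-box at -166 and the AGGTCA core, reversed, at -137. Another Per1 window, chr11:69099902-69100151, held no match of the 4 motifs. At least 1 E-box was in 6.02% of all windows, the variant in 3.85% and the AGGTCA core in 14%. The variant also stood in Cry2 (at -166) and Nr1d1 (at -28), and the AGGTCA core in Nr1d2 (at -77) and in 1 of the 3 Clock windows (at -119). No match of the 4 motifs was found in the windows of Dbp and Arntl. The Dbp window, chr7:45704997-45705246, runs past 45705088, the start of the main deposited transcript Dbp-201. It thus covers only part of the 250 bases before that transcript, and the lack of a match does not speak for the rest. None of the matches overlapped another, and a match is a run of letters, not a measured binding site.

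None of the 10 clock genes passed the test between the ages. The values were FPKM (fragments per kilobase of transcript scaled to the mapped fragments of the library) as deposited by the authors, summed over a gene's transcripts, and were tested with limma on log2(FPKM + 0.5). A gene is said to have risen or fallen where its limma p, adjusted over the 13041 genes averaging 0.5 FPKM or more, was under 0.05. By that rule 0 members rose and 0 fell, while 0.92% of all genes tested rose and 1.21% fell. Without limma's variance trend 0 members passed too, and at an unadjusted p under 0.05 there were 2, Clock and Dbp, where 27% of all genes had such a p. The study's thresholds were P under 0.05 without adjustment, joined to a difference of more than 1.5-fold. At these, 1 member, Dbp, was lower in 22M and 0 were higher, against 4.22% lower, 4.08% higher and 8.3% either way among all genes tested. The values of 22M and 3M did not overlap in 3 members (Clock, Per3 and Dbp), against 34.4% of all genes, a share close to that of the members. Of these 3, 2 were higher and 1 was lower, against 13.3% and 21.1% of all genes. The median log2 fold change of the members was 0.07, and that of all genes tested was -0.05. The fold changes ran from -0.73 for Dbp to 0.81 for Per3.

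**Figure D1:**
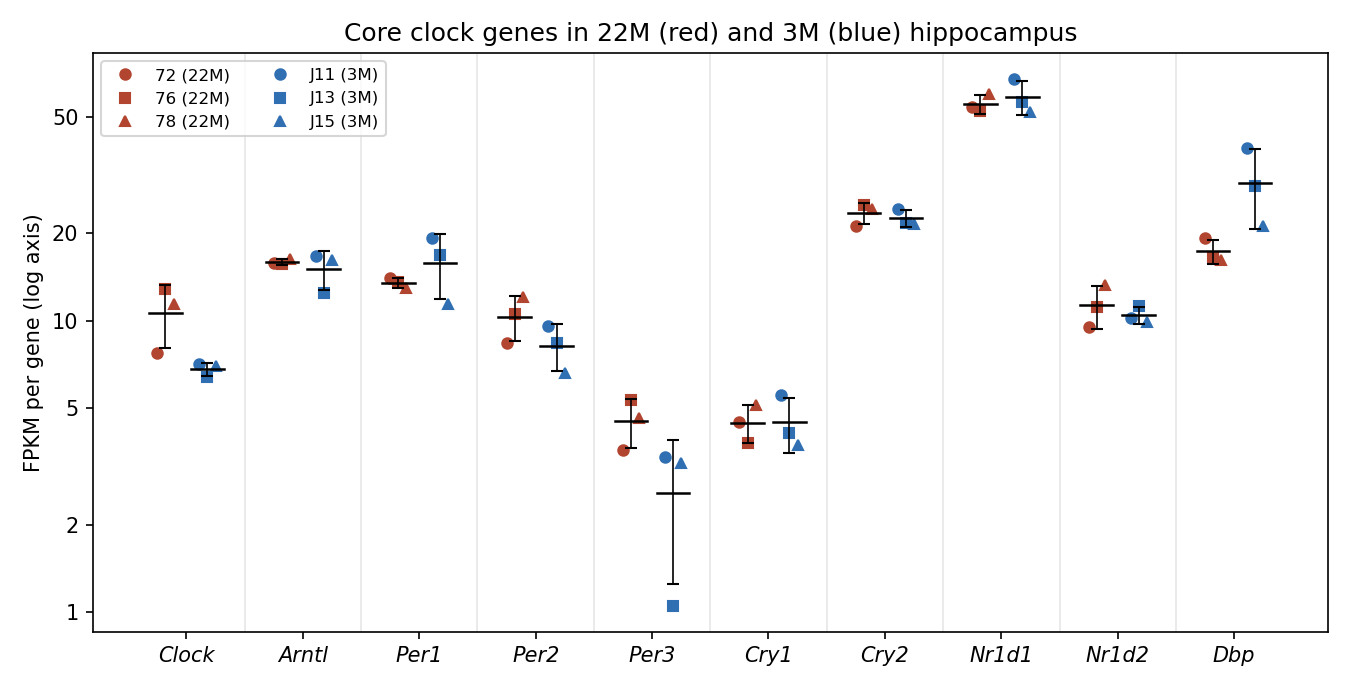
FPKM per gene on a log axis for the 10 core clock genes, with 1 point per library, 22M (red) left of 3M (blue), and the mean and SD of 3 libraries in black. The 22M points lie below all 3M points in Dbp and above them in Clock and Per3, and overlap them in the other 7 genes.

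The levels of the 10 genes kept a broad order at both ages. FPKM are scaled by transcript length, so levels of different genes can be set side by side roughly. The order is approximate, because fold changes between the ages still ran with transcript length and some members share exons with neighbours, as given below. Nr1d1 was the highest, with means of 55.3 FPKM in 22M against 58.3 FPKM in 3M, and its libraries were above those of every other member. Cry2 averaged 23.3 FPKM in 22M against 22.4 FPKM in 3M. The low end was held by Per3 and Cry1, Per3 at 4.53 FPKM in 22M against 2.57 FPKM in 3M, and Cry1 at 4.47 FPKM against 4.48 FPKM. In 22M, the ranges of Dbp and Arntl overlapped, as did those of Per1, Nr1d2, Clock and Per2 from each to the next, and those of Per3 and Cry1. In 3M, neighbours with overlapping ranges were Dbp and Cry2, Per1 and Arntl, and Per2 and Clock.

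Among the activators, Arntl showed no difference beyond its spread and Clock was higher without passing the adjusted test. Arntl (chromosome 7, 113207465 to 113314126, plus strand of GRCm38) encodes the partner that both loops act through. It was at 15.7, 15.6 and 16.3 FPKM in 72, 76 and 78, against 16.6, 12.4 and 16.1 FPKM in J11, J13 and J15. The 22M values lay inside the range of 3M, where J13 was low. The log2 fold change was 0.08 (95% interval -0.22 to 0.39, limma adjusted p = 0.70). Clock (chromosome 5, 76209868 to 76304792, minus strand) was at 7.74, 12.8 and 11.4 FPKM in 72, 76 and 78, against 7.07, 6.43 and 6.99 FPKM in J11, J13 and J15. Library 72 stood close to the 3M libraries, and 76 and 78 stood apart from them. The log2 fold change was 0.57 (SE 0.186, limma adjusted p = 0.117). Clock passed the study's thresholds when 72, J11 or J15 was left out, and Per3 too when J11 was. The exact permutation p was 0.1 for Clock, Per3 and Dbp, the smallest that 3 against 3 libraries can give. Npas2, which encodes a relative of CLOCK able to take its place in the forebrain, averaged 11.6 ± 1.58 FPKM in 22M and 10.7 ± 4.42 FPKM in 3M (SD, n = 3 libraries each).

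The Clock FPKM were divided differently between transcripts in 76 and 78 than in the other libraries. The table holds 3 Clock transcripts with nearly the same coding length (2565 bases in Clock-201 and Clock-205, 2562 in Clock-204) and 3′ UTRs of 4522, 6831 and 2846 bases. Clock-201 was at 0.719, 5.07 and 4.86 FPKM in 72, 76 and 78, against 0.320, 0.279 and 0.397 FPKM in J11, J13 and J15. It made up 9.29%, 39.7% and 42.8% of the gene's FPKM in 72, 76 and 78, against 4.34% to 5.68% in the 3M libraries. Clock-205, with the longest 3′ UTR, was at 6.00, 3.45 and 3.51 FPKM in 22M and at 4.83, 5.73 and 6.04 FPKM in 3M. In a fit over all transcripts, Clock-201 had a log2 fold change of 2.00 (limma adjusted p = 0.203) and Clock-205 one of -0.36 (adjusted p = 0.491). The 2 libraries with much Clock-201 were thus those with the high sum, and the opposite signs did not pass the test. A fragment-weighted level, chosen after the data were seen, weights each transcript's FPKM by its length. For Clock it was 8.33, 11.4 and 10.4 in 72, 76 and 78, against 7.20, 7.23 and 7.78 in J11, J13 and J15, a log2 fold change of 0.41 (limma adjusted p = 0.118).

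**Figure D2:**
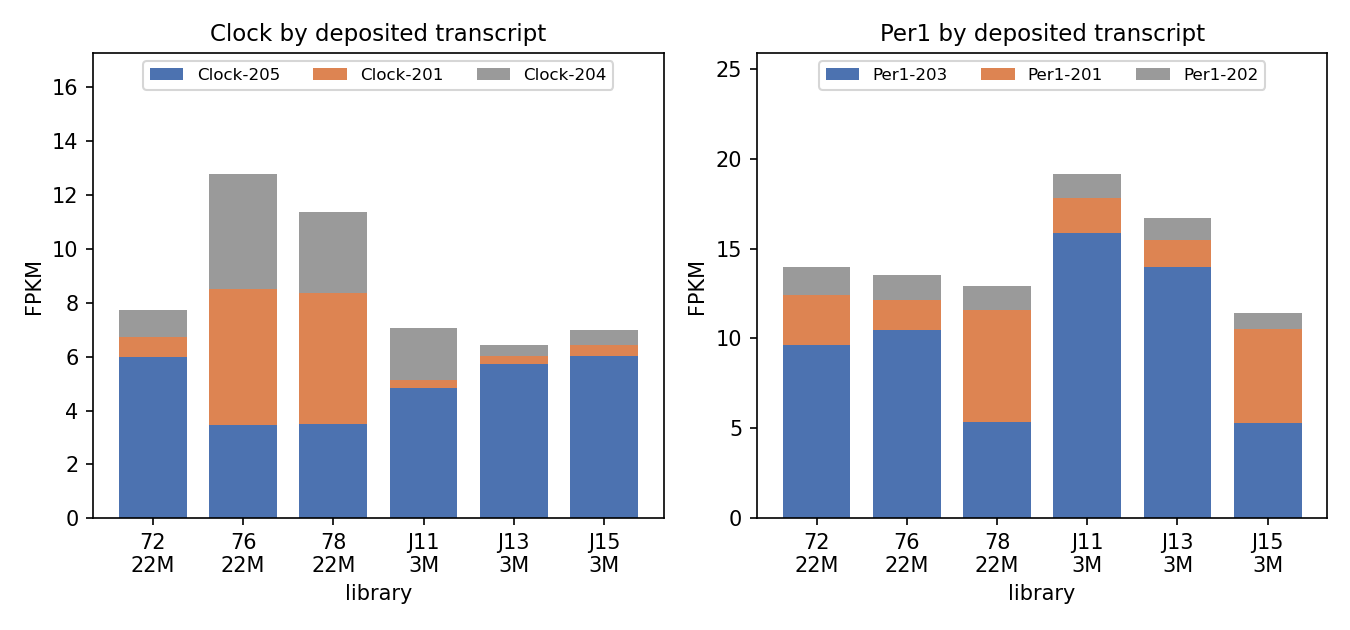
FPKM of the deposited Clock transcripts (left) and Per1 transcripts (right), stacked, in each of the 22M libraries 72, 76 and 78 and the 3M libraries J11, J13 and J15. Clock-201 is large only in 76 and 78, at 5.07 and 4.86 FPKM, and Per1-201 is large in 78 and J15, at 6.22 and 5.20 FPKM, which are of different ages.

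The 3 Per genes, whose proteins form the repressor with the CRY proteins, had fold changes of both signs and none passed the test. Per1 (chromosome 11, 69095217 to 69109960, plus strand) was at 13.98, 13.5 and 12.9 FPKM in 72, 76 and 78, against 19.2, 16.7 and 11.4 FPKM in J11, J13 and J15. The 22M libraries lay close together inside the wide range of 3M. Its log2 fold change was -0.19 (limma adjusted p = 0.545), and it moved with single 3M libraries, to -0.037 without J11 (limma adjusted p = 0.916) and -0.40 without J15 (limma adjusted p = 0.0878). Per2 (chromosome 1, 91415982 to 91459324, minus strand), a repressor needed for a lasting rhythm, was at 8.39, 10.6 and 12.003 FPKM in 22M and at 9.59, 8.41 and 6.61 FPKM in 3M. These values overlapped, with a log2 fold change of 0.32 (limma adjusted p = 0.311). It was 0.18 without J15, 0.20 without 78 and 0.17 with the length and GC correction. Per3 (chromosome 4, 151003652 to 151044665, minus strand) is less needed for the rhythm itself than its relatives. It was at 3.61, 5.35 and 4.62 FPKM in 72, 76 and 78, against 3.42, 1.06 and 3.24 FPKM in J11, J13 and J15. Only J13 was far from the rest, and 72 exceeded J11 by little. The log2 fold change of Per3 was 0.81 (SE 0.372, limma adjusted p = 0.217), and without J13 it was 0.38.

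Per1 FPKM, too, were divided unevenly between transcripts. Per1-201 (23 exons, 4671 bases) and Per1-203 (22 exons, 4537 bases) have different starts, at 69098948 and 69100522, and the printed E-box window ends at the start of Per1-201. Per1-201 made up 20.1%, 12.3% and 48.2% of the gene's FPKM in 72, 76 and 78, against 10.2%, 8.93% and 45.4% in J11, J13 and J15. The share was high in 1 library of each age. Because these transcripts share most of their sequence, the division is uncertain, while the fragment-weighted log2 fold change of the gene was -0.20.

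The Cry genes, whose proteins repress CLOCK and ARNTL, overlapped between the ages. Cry1 (chromosome 10, 85131700 to 85185064, minus strand) was at 4.48, 3.80 and 5.13 FPKM in 72, 76 and 78, against 5.57, 4.13 and 3.76 FPKM in J11, J13 and J15. Its log2 fold change was 0.00 with a 95% interval of -0.43 to 0.43. Cry2 (chromosome 2, 92403646 to 92434043, minus strand) was at 21.1, 24.8 and 24.1 FPKM in 22M and at 24.1, 21.6 and 21.4 FPKM in 3M. Its log2 fold change was 0.06 with a 95% interval of -0.18 to 0.29. Cry2 had the smallest spread within an age among the members, at the 19.8th percentile of all genes tested, and Per3 the largest, at the 91.5th.

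The REV-ERB genes overlapped between the ages as well. Nr1d1 (chromosome 11, 98767932 to 98775333, minus strand) was at 53.8, 52.0 and 59.9 FPKM in 72, 76 and 78, against 67.1, 56.2 and 51.8 FPKM in J11, J13 and J15. Its log2 fold change was -0.07 (95% interval -0.35 to 0.21). The sign turned to 0.05 after quantile normalization and 0.07 after a per-library correction for length and GC. Exons of Nr1d1 overlap those of the thyroid hormone receptor gene Thra on the other strand. Arntl and Cry2 have such antisense neighbours as well, Gm45355 and D930015M05Rik. Thra was at 195, 206 and 199 FPKM in 22M and at 212, 221 and 209 FPKM in 3M, and whether the counting used the strand is not given in the sources used here. Nr1d2 (chromosome 14, 18204054 to 18239127, minus strand) was at 9.48, 11.1 and 13.2 FPKM in 22M and at 10.2, 11.2 and 9.88 FPKM in 3M. Its log2 fold change was 0.10 (95% interval -0.23 to 0.43), turning to -0.05 with the length and GC correction.

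Dbp was lower in the 22M libraries at the study's thresholds and did not pass the adjusted test. Dbp (chromosome 7, 45705088 to 45710203, plus strand) encodes the albumin D-site binding protein, an output of the clock whose RNA has one of its widest daily swings. It was at 19.2, 16.4 and 16.2 FPKM in 72, 76 and 78, against 39.0, 28.9 and 21.1 FPKM in J11, J13 and J15. The groups did not overlap, but J15 was nearer to 72 than to J11. Dbp averaged 17.2 ± 1.67 FPKM in 22M and 29.6 ± 8.99 FPKM in 3M (SD, n = 3 libraries each). The log2 fold change was -0.73 (SE 0.216, 95% interval -1.24 to -0.21, limma adjusted p = 0.0994). It was -0.95 without J15, where the limma adjusted p was 0.0469, and -0.51 without J11. With the length and GC correction it was -0.42 (limma adjusted p = 0.292). Dbp shares exonic sequence with Sphk2 on the other strand, a sphingosine kinase gene at 6.87, 7.53 and 7.52 FPKM in 22M and at 9.01, 8.93 and 8.92 FPKM in 3M. Within 3M both genes were highest in J11 and lowest in J15, over a narrow range in Sphk2 and a wide one in Dbp. The part of Sphk2 reads in the Dbp values was not tested.

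Over all genes, the median log2 fold change ran with transcript length, from -0.34 in the shortest of 10 length classes to 0.31 in the longest. Dbp, the shortest member at a mean of 1771 bases, was in a class whose median log2 fold change was -0.21. Clock, the longest at 8336 bases, was in the class of the longest transcripts, whose median was 0.31. Dbp was 0.51 below the median of its class, Clock 0.26 above, and Per3 0.64 above. Per1, Arntl and Cry1 had fold changes of the opposite sign to the medians of their classes, which were 0.08, -0.08 and -0.06. After a correction of each library for length and GC content, Clock was at 0.22 (SE 0.150, limma adjusted p = 0.477) and Per3 at 0.62 (adjusted p = 0.399). The members' median was then 0.07 and that of all genes -0.02. How far transcript length accounts for the values of single members was not tested.

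**Figure D3:**
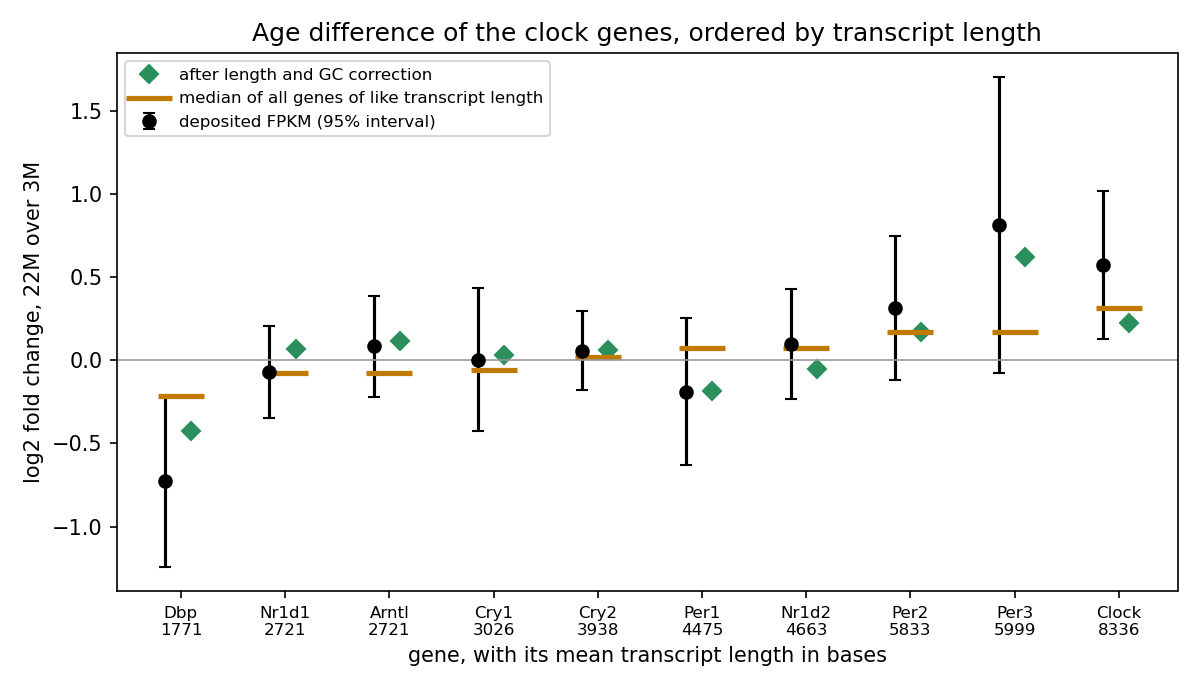
Log2 fold change of 22M over 3M for each clock gene, ordered by mean transcript length in bases, with the 95% interval from limma (black), the value after the length and GC correction (green) and the median of the class of genes of like length (orange). The orange medians run from -0.21 for Dbp to 0.31 for Clock, and the black values of Dbp and Clock lie farther out on the same sides.

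Within each library, the activator gene Arntl was set against the repressor genes and against Dbp, which is a clock output and not a repressor. Each log2 ratio was a difference of log2(FPKM + 0.5) values, with no test. The ratio of Arntl to Dbp was -0.28, -0.07 and 0.01 in 72, 76 and 78, against -1.21, -1.19 and -0.37 in J11, J13 and J15. The ratio was higher in each 22M library than in every 3M library, by 0.81 between the means, and J15 was the 3M library nearest to 22M. The log2 fold change of Arntl itself was 0.08 and that of Dbp -0.73. The ratio of Arntl to Nr1d1 was -1.74, -1.71 and -1.85 in 22M and -1.98, -2.13 and -1.65 in 3M, and these values overlapped. Ratios of Arntl to Per1, Per2, Nr1d2, Cry1 and Cry2 overlapped between the ages too. The ratio of Arntl to Per3 was lower in 22M, at 1.98, 1.46 and 1.71 in 72, 76 and 78 against 2.13, 3.05 and 2.15 in J11, J13 and J15. Nr1d1 and Dbp, which are driven by the same E-box activators, did not keep 1 ratio. The log2 ratio of Nr1d1 to Dbp was 1.47, 1.64 and 1.86 in 22M and 0.77, 0.95 and 1.28 in 3M, with no overlap.

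Within an age, the activators and repressors did not take opposite sides of the age mean in every library. In J11, 9 of the 10 members were above their 3M mean, Arntl, Dbp, Nr1d1 and the Per and Cry genes among them. In J15, 7 were below it, while Arntl, Clock and Per3 were above. In J13, Per3 was 0.87 below its 3M mean and Arntl 0.26 below, while Dbp was 0.01 above. In 22M, 72 had 7 members below the mean and 78 had 8 above, with Arntl within 0.04 of its mean in all 3 libraries. In 78, Dbp and Per1 were the 2 members below.

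**Figure D4:**
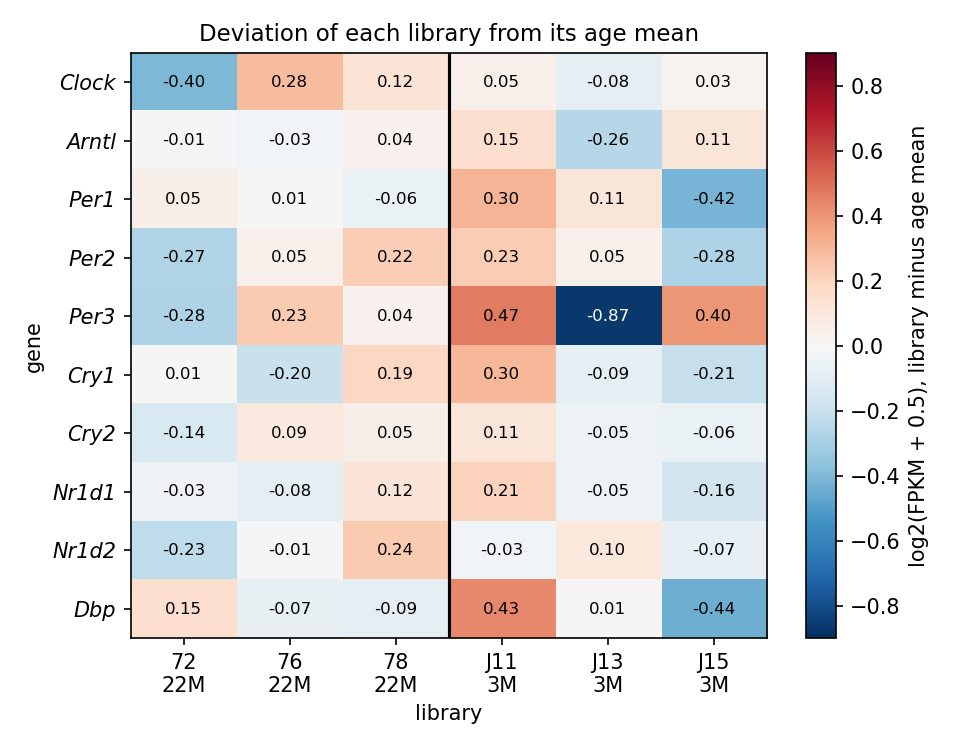
Deviation of log2(FPKM + 0.5) in each library from the mean of its age group, for the 10 clock genes (rows) in the 22M libraries 72, 76 and 78 and the 3M libraries J11, J13 and J15 (columns), red above and blue below the mean. J11 is above the 3M mean in 9 genes, and the largest deviation is that of Per3 in J13, at -0.87.

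The 5 genes whose pattern within the ages was most like that of Dbp included no member of the clock set. The measure was Pearson's r between deviations from the age means over the 6 libraries, among the 12070 genes averaging 1 FPKM or more. It is a description of 6 points that share their age means. Dbp deviated by 0.43, 0.01 and -0.44 in J11, J13 and J15, and by 0.15, -0.07 and -0.09 in 72, 76 and 78. The r therefore follows mostly the order of the 3M libraries. The 5 highest were Rpp38, Trh, Cgref1, Spns1 and Ddit3, with r from 0.994 to 0.996. Trh, which encodes thyrotropin-releasing hormone, was at 0.792, 0.465 and 0.436 FPKM in 72, 76 and 78, against 9.18, 4.59 and 1.60 FPKM in J11, J13 and J15. The 5 lowest were Lrfn2, Grin2a, Homer2, Mmd and Tm9sf3, with r from -0.998 to -0.995. Grin2a, an NMDA receptor subunit gene, was at 24.9, 31.7 and 32.3 FPKM in 22M and at 11.1, 15.5 and 23.9 FPKM in 3M. Of the members, Per1 ranked 80th from the top (r = 0.953), Nr1d1 ranked 1222nd (r = 0.765), Cry1 ranked 1404th (r = 0.734), and Arntl (r = 0.05) and Per3 (r = -0.06) ranked near the middle.

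Of 30 other genes of the clock, 29 were in the table and 28 were tested. By limma's adjusted p, 0 rose and 0 fell, also without the variance trend, and 5 of the 28 had an unadjusted p under 0.05, a smaller share than the 27% of all genes tested. Their median log2 fold change was 0.06. Nfil3, a repressor that competes with DBP for D-boxes, was at 3.82, 3.79 and 3.74 FPKM in 72, 76 and 78, against 5.82, 6.66 and 4.85 FPKM in J11, J13 and J15. Its values did not overlap, and its log2 fold change was -0.54 (limma adjusted p = 0.0771). The other 4 were higher in 22M, namely Bhlhe41, an E-box repressor, Fbxw11, a ubiquitin ligase subunit that targets PER proteins, and the kinase genes Gsk3b and Prkaa2, with log2 fold changes of 0.26 to 0.47 and limma adjusted p of 0.0856 to 0.173. With the length and GC correction the log2 fold changes were 0.08 for Gsk3b, 0.14 for Prkaa2, 0.09 for Bhlhe41, 0.21 for Fbxw11 and -0.35 for Nfil3. The D-box relatives of Dbp overlapped between the ages. Tef averaged 31.5 ± 1.80 FPKM in 22M against 32.4 ± 3.47 FPKM in 3M, and Hlf 21.2 ± 2.11 FPKM in 22M against 24.1 ± 6.61 FPKM in 3M (SD, n = 3 libraries each). Activators of Arntl did too, where Rora averaged 6.38 ± 0.450 FPKM in 22M against 8.51 ± 2.47 FPKM in 3M. Rorb averaged 2.45 ± 0.298 FPKM in 22M against 3.29 ± 0.845 FPKM in 3M. Ciart, a repressor strongly bound by the clock, was at 7.56, 8.44 and 8.25 FPKM in 22M and at 5.04, 11.996 and 5.78 FPKM in 3M, where J13 was high.

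Inputs that act on Per1 or on clock outputs were read from 3 further lists. Of 10 activity-induced genes, 2 fell, 0 rose and 8 did not pass the test, with a median log2 fold change of -0.31. Among all genes tested 0.92% rose and 1.21% fell. Fold changes were below 0 in 9 of the 10 and above 0 in 1, Sik1. It was higher in 22M without overlap (log2 fold change 0.35, limma adjusted p = 0.126), as were 13.3% of all genes tested. Junb, an AP-1 subunit gene, was at 28.6, 29.2 and 27.6 FPKM in 72, 76 and 78, against 45.7, 58.4 and 49.9 FPKM in J11, J13 and J15 (log2 fold change -0.83, limma adjusted p = 0.0364). Egr2, a zinc finger gene of the same early response, was at 2.49, 2.30 and 2.55 FPKM in 22M and at 5.60, 4.15 and 5.09 FPKM in 3M (log2 fold change -0.88, limma adjusted p = 0.0479). Of 8 glucocorticoid-induced genes, 1 rose, 0 fell and 7 did not pass, with a median of -0.13. Fold changes were above 0 in 3 of them and below 0 in 5. Lower in 22M without overlap were 3 of the 8, against 21.1% of all genes tested. Among these 3 were Sgk1 (log2 fold change -0.56, limma adjusted p = 0.0722) and Nfkbia (-0.63, limma adjusted p = 0.0873). The gene that rose was Zbtb16, a zinc finger repressor, at 17.3, 18.7 and 21.9 FPKM in 22M and at 8.18, 10.6 and 6.86 FPKM in 3M (log2 fold change 1.14, limma adjusted p = 0.0407). With the length and GC correction the limma adjusted p of Junb, Egr2 and Zbtb16 were 0.120, 0.0679 and 0.0803. Over the 16 alternative settings Junb passed in 9, Egr2 in 8 and Zbtb16 in 9. Of 7 temperature-responsive genes, 0 rose and 0 fell. An unadjusted p under 0.05 was found in 2 of the 7, a share close to the 27% of all genes tested. The 2 were Cirbp, a cold-inducible RNA-binding protein gene that follows body temperature, and its relative Rbm3. Cirbp was at 10.2, 7.78 and 14.8 FPKM in 72, 76 and 78, against 29.1, 21.3 and 15.7 FPKM in J11, J13 and J15 (log2 fold change -0.98, limma adjusted p = 0.0965). In 3M it was highest in J11 and lowest in J15, as Dbp was, and in 22M it did not keep the Dbp order.

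Some marker lists of cell types and regions differed between the ages beside these values. All 8 of 8 hippocampal neuron markers were in the table, with a summed level of 373 to 490 FPKM in 22M and 388 to 458 FPKM in 3M. None passed the adjusted test, but single markers differed without overlap. Prox1 was higher in 22M (log2 fold change 0.67, limma adjusted p = 0.134) and Calb1 lower (-0.47, limma adjusted p = 0.101). Of 7 myelin markers 5 fell, with sums of 689 to 884 FPKM in 22M and 1144 to 1217 FPKM in 3M. Of 5 erythroid markers all 5 rose, with sums of 1329 to 2046 and 590 to 633 FPKM. Of 7 tested markers of the neighbouring thalamus and habenula 4 fell, with sums of 18.1 to 22.6 and 44.8 to 100.2 FPKM over the 8 listed, of which Gbx2 was listed at 0 in 72, 78 and J15. Among all genes tested 0.92% rose and 1.21% fell. Without limma's variance trend, 1 myelin, 2 erythroid and 1 thalamic marker passed. With the length and GC correction only Mog (limma adjusted p = 0.0317) of the myelin markers passed. Of the thalamic markers only Prkcd (limma adjusted p = 0.0259) then passed, and of the erythroid markers all but Alas2 (limma adjusted p = 0.0570). Choroid plexus markers summed to 133 to 2805 FPKM in 22M and 1619 to 2485 FPKM in 3M. Of 6 astrocyte, 5 microglia, 5 interneuron and 4 endothelial markers, 0 rose and 0 fell. The astrocyte markers had fold changes of both signs, 3 above 0 and 3 below. Of 6 markers of the suprachiasmatic nucleus, the seat of the central clock, 2 were in the table. The thalamic sum and Dbp were both lower in 22M than in 3M without overlap. Within 3M they did not share an order, and J11 had the most Dbp and the lowest level of Shox2, Tnnt1 and Ramp3. The part of cell composition in the clock gene values was not tested, and fewer cells of a type cannot be told from less RNA per cell in such bulk libraries.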

How the data were processed

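Stranded poly(A) RNA-seq libraries of mouse hippocampus, 3 of 22M and 3 of 3M, were analysed from 1 table of 25409 transcripts. Its values are FPKM per transcript, as deposited by the authors. The submitters' processing notes list HISAT2 and GRCm38 (mm10). The quantifier, its version and its annotation were not given in the sources used here. Library depth is unknown from FPKM, so no counting interval is given. The summed FPKM per library were 318024 to 358073.

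FPKM were summed per gene. Genes averaging 0.5 FPKM or more entered limma 3.58.1 (R 4.3.3) fits (empirical Bayes with a variance trend, two-sided, age as the only term) on log2(FPKM + 0.5), with Benjamini-Hochberg adjustment over all 13041 genes. The fold changes are on that scale, which understates the change of low genes. The script was tested on simulated data. Transcript structures came from GENCODE M21, which held 99.72% of the identifiers once versions were dropped, and promoter windows from RefSeq on GRCm38.p6. Exact permutation tests were two-sided.

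The members, the lists and the markers were chosen with earlier results of these data known. The named genes were the 10 members, other clock genes past a threshold or of the PAR bZIP and ROR families, up to 4 genes by p of each input list, and the 5 genes most and least like Dbp. Genes outside that rule (Npas2, Ciart, Bhlhe41, Fbxw11, Gsk3b, Prkaa2 and Nfil3) were named after their values were seen. Alternatives were another pseudocount, filter, scaling or variance model, a per-library length and GC correction by splines with 4 degrees of freedom, single transcripts, and leaving out each library.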

Additional observations from a re-analysis of the deposited data

How the results depend on the processing

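Of 233 alternative values for 15 results, 211 were classed as the same. For the fold change of a member, this meant the same direction and the same side of the adjusted p threshold. For a number of members, it meant an unchanged number. For the ratio of Arntl to Dbp, it meant the same sign and a shift smaller than the pooled SD within the ages. The number of members higher at the study's thresholds was 1 (Clock) with a pseudocount of 0.1, with median-of-ratios scaling and with quantile normalization, and ranged from 0 to 2 when single libraries were left out. The number lower was 0 after the length and GC correction, and 0 to 1 when single libraries were left out (0 without J11). The number that fell ranged from 0 to 1 (Dbp without J15, log2 fold change -0.95). The number that rose was 0 throughout. Signs turned for Arntl with its highest transcript alone (-0.067) and without J13 (-0.045, range without single libraries -0.045 to 0.16), for Clock with Clock-205 alone (-0.36), for Cry1 without 72 (-0.0021), 78 (-0.09), J13 (-0.04) or J15 (-0.10, range -0.10 to 0.15), for Nr1d1 after quantile normalization (0.049), after the length and GC correction (0.069) and without J11 (0.033, range -0.15 to 0.033), and for Nr1d2 after that correction (-0.053) and without 78 (-0.020, range -0.020 to 0.21). The cause was not tested. The ratio of Arntl to Dbp differed by 0.54 to 0.83 under other settings and by 0.67 to 1.08 without single libraries. The limma adjusted p of Dbp ranged from 0.0469 to 0.292 and that of Clock from 0.0750 to 0.491. No paired analysis was possible because the labels give the 22M and 3M libraries no shared replicate numbers. With 3 libraries an age and no depth, differences of the size of the within-age spread could not be shown.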
